A study of Mus musculus with 2 samples.

Results

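Broad H1t peaks were the rows of the deposited peak list on chromosomes 1 to 19 whose end minus start came to 2000 bp or more. There were 1315 of them among 72438 peaks on these chromosomes (1.82%, exact 95% interval 1.72 to 1.92%) and 76546 peaks in the whole list. The other 71123 peaks on these chromosomes are called narrower peaks here. The series holds 2 libraries from spermatogenic cells, labelled as germ cells, of ICR mice aged 6 weeks. One was immunoprecipitated with a rabbit polyclonal antibody against H1T made in-house, after enzymatic fragmentation of the chromatin, and the other was an input without antibody. Only the H1t immunoprecipitate had a peak list, the input was not analysed here, and the labels do not say whether animals were pooled. With 1 library there was no replicate, so every value is a description of that library and no p-value is given.

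Linker histones bind the nucleosome where DNA enters and leaves it and the DNA between nucleosomes, and they help chromatin fold. H1t is the variant that male germ cells make from meiotic prophase onwards, where it replaces part of the somatic linker histones. It binds DNA less tightly than the somatic variants in vitro, and the antibody used here came from work on H1T at ribosomal DNA. A peak is a stretch where the authors' program found more immunoprecipitated reads than it expected. A broad peak can be 1 long enriched stretch or several sites too close to be separated.

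Most broad peaks lay in intergenic or intronic sequence that was not read here. The sequences shown come from the minority in tandem groups, exons and promoters, where the annotation holds sequence. Several compact groups lay in tandem arrays. In a group of 13 broad peaks on chromosome 6, RefSeq places predicted genes whose upstream sequence is repeated, and the 250 bases before 3 of their start sites are shown. The RefSeq promoter sequences are on GRCm38.p6, the assembly called mm10, each is written 5′ to 3′ on the gene's own strand, and capitals mark CG dinucleotides.
Gm40369, chr6:47653742-47653991, plus strand: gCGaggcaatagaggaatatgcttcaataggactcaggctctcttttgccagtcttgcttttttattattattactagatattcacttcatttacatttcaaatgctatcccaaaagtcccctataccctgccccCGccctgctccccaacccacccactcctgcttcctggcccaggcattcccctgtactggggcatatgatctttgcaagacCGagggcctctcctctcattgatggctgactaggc
Gm40367, chr6:47662342-47662591, plus strand: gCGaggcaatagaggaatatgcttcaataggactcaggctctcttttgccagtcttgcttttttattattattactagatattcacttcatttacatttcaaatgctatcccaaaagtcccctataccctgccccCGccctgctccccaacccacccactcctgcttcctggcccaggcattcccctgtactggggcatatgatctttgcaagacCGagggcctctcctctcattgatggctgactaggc
Gm52861, chr6:47738587-47738836, plus strand: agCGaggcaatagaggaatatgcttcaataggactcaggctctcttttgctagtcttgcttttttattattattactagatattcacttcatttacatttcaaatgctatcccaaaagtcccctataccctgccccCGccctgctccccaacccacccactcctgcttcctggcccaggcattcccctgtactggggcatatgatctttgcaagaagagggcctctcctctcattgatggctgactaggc
Over the full 300 bases of the promoter table, which adds 50 bases after the start site, the promoters of Gm40369, Gm40367, Gm36327 and Gm40364 were identical. The promoter of Gm52861 was 4 single-base edits away from them. Each of these 5 promoters lay wholly inside a broad peak of its own.

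Other broad peaks lay on repeats inside single coding genes. For 4 genes with such repeats, the 50 coding bases that recurred most often in the annotated transcript and lay in the broad peak are shown on the gene's strand, again with CG in capitals.
Ahnak2, chr12:112780847-112780896, minus strand: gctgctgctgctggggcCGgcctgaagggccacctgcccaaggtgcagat
Eppk1, chr15:76105922-76105971, minus strand: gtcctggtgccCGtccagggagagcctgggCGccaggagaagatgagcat
Flg, chr3:93286820-93286869, plus strand: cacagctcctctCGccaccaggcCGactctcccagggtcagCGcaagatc
Flg2, chr3:93213331-93213380, plus strand: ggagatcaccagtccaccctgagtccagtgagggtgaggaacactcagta
The Flg2 sequence occurred 55 times in its transcript at a median spacing of 234 bases, and 10 of the copies lay in the peak. The Flg sequence occurred 17 times at a median spacing of 750 bases, with 4 copies in the peak. Annotated coding sequence made up 7008 of the 20803 bases of the Flg2 transcript and 6681 of the 14497 bases of the Flg transcript. Copies were counted over whole transcripts, and how many of them lay in coding sequence was not counted. All 6 copies of the Ahnak2 sequence lay in its peak at a median spacing of 519 bases, as did all 3 copies of the Eppk1 sequence, 1545 bases apart.

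The last sequences are promoters. Those of Cebpa and Ajap1 are shown because they are rich in CG, and that of Duxf3, a gene of the Dux homeobox family, because it holds few.
Cebpa, chr7:35119043-35119292, plus strand: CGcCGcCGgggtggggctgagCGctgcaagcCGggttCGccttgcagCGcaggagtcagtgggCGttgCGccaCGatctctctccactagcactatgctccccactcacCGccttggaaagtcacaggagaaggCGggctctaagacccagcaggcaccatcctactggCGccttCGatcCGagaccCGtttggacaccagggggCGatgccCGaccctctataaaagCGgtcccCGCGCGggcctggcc
Ajap1, chr4:153482831-153483080, minus strand: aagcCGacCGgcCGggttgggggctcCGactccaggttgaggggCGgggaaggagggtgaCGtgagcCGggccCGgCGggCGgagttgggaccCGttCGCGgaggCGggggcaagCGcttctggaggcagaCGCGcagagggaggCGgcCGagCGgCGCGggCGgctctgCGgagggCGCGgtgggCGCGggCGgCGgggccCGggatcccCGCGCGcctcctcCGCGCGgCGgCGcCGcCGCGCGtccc
Duxf3, chr10:58233090-58233339, minus strand: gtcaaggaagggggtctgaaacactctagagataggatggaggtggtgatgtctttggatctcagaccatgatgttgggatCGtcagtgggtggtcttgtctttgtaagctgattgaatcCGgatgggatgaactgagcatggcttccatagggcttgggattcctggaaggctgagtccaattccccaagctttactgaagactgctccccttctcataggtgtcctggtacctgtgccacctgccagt
The 250 bases held 22 CG dinucleotides at Cebpa and 43 at Ajap1, against 2 at Duxf3, and 3, 3 and 2 at the repeated promoters of Gm40369, Gm40367 and Gm52861.

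The width of broad peaks had a median of 2334 bp and quartiles of 2133 and 2710.5 bp, and reached 9639 bp, against a median of 694 bp for narrower peaks. The members were chosen by width, so these values are a description. Of the broad peaks, 214 were 3000 bp or wider, 62 were 4000 bp or wider and 24 were 5000 bp or wider. They took 3.40 Mb, or 5.76% of the sequence under peaks on chromosomes 1 to 19. The 5 narrowest members measured 2000, 2000, 2000, 2001 and 2001 bp with scores of 214, 289, 436, 452 and 247, and the 5 peaks just under the threshold measured 1999, 1999, 1999, 1998 and 1998 bp with scores of 372, 262, 232, 252 and 195. The threshold thus separated peaks with overlapping scores at its edge.

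The authors' score per peak, whose scale is not stated, went with width within this library. It had a median of 306 (quartiles 252 and 397) in broad peaks, against 73.0 (quartiles 58.1 and 105.5) in narrower peaks. All 6 peaks at the highest score of 3100 were broad, as were 17 of the 25 with 1000 or more and 152 of the 240 with 500 or more (63.3%). The median score was 278 for peaks of 2000 to 2500 bp, 353 for 2500 to 3000 bp, 446 for 3000 to 4000 bp and 612 for 4000 to 5000 bp. Width and score came from the same reads, so this is no independent evidence about either.

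**Figure D1:**
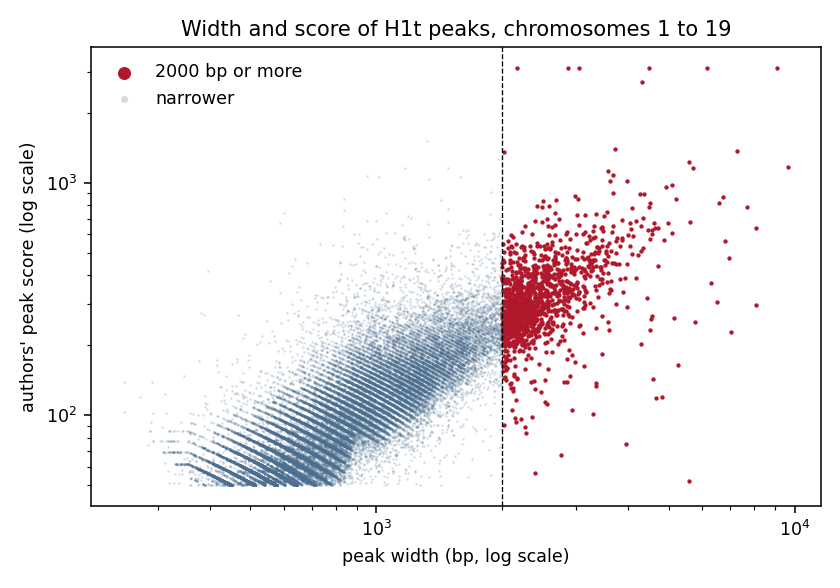
Each point is 1 peak on chromosomes 1 to 19, with its width in bp on the x axis and the authors' score on the y axis, both on log scales; red points are broad peaks, blue points narrower peaks, and the dashed line marks 2000 bp. Scores climb with width, 6 broad peaks sit at 3100, and 11 broad peaks lie below a score of 100.

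A small set ran against this pattern. Among broad peaks, 11 had a score below 100, down to 52.4 for a peak of 5593 bp at chr5:15673884-15679476, 1233 bp from Speer4cos. Of these, 9 lay in groups of 6 or more broad peaks described below, on chromosomes 2, 5 and 8. The other 2 lay at chr3:16627662-16629808 and chr4:147594345-147596630. Their widths ran up to 5593 bp, so a broad peak was not always a high one.

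Where broad peaks lay relative to genes differed from narrower peaks mostly by fewer exonic and promoter positions. By the annotation class of its midpoint, 66.5% of broad peaks (874; exact 95% interval 63.8 to 69.0%) were intergenic, against 54.5% of narrower peaks and 50.3% of the bases of these chromosomes. Among peaks with a score of 100 or more the gap was smaller, at 66.3% of broad peaks and 60.5% of narrower peaks. Introns held 29.4% of broad peaks (386; 26.9 to 31.9%) and 29.7% of narrower peaks, a difference inside the interval, against 41.6% of bases. The intervals cover counting error only, and neighbouring peaks are not independent of each other.

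Promoters here run from 1000 bp before to 100 bp after any transcript start. They held 2.66% of broad peaks (35), against 7.52% of narrower peaks and 3.72% of bases. Of the 35, 8 lay at starts of 5S ribosomal RNA genes, 17 at transcript starts of coding genes and 10 at neither. Some of these starts lie inside a gene, as at the Flg peaks, 6458 and 13240 bp from a coding start site. The promoter share depended on the definition. It was 5.78% against 11.5% by any overlap and 4.94% against 12.9% with a wider promoter. When broad meant 3000 bp or more, it was 5.14% against 7.44%. Coding sequence held 1.06% of broad peaks (14), against 5.59% of narrower peaks and 1.23% of bases. With a score of 100 or more, the promoter shares were 2.68% and 5.45%, and the coding shares 1.07% and 3.52%. The 3′ UTR class held 0.152% of broad peaks (2), against 0.907% of narrower peaks, and other exons held 0.304% (4), against 1.1%. No broad peak had its midpoint in a 5′ UTR (0 of 1315, which allows a share of up to 0.228% at 3 counts and up to 0.280% by the exact interval), against 0.682% of narrower peaks. The share was lower in broad peaks than in narrower peaks in each exonic class and in promoters.

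The change along width was gradual among narrow widths. The intergenic share was 44.0% for peaks under 500 bp, 51.7% for 500 to 750 bp, 58.4% for 750 to 1000 bp, 61.7% for 1000 to 1500 bp, 63.7% for 1500 to 2000 bp and 66.5% for 2000 to 2500 bp. Over the same classes the coding share was 8.49%, 6.5%, 4.45%, 3.30%, 2.86% and 0.837%. The promoter share was 8.60%, 8.57%, 6.53%, 5.85%, 3.68% and 2.15%, and in the 152 peaks of 3000 to 4000 bp it was 3.95%, so it did not go on falling.

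**Figure D2:**
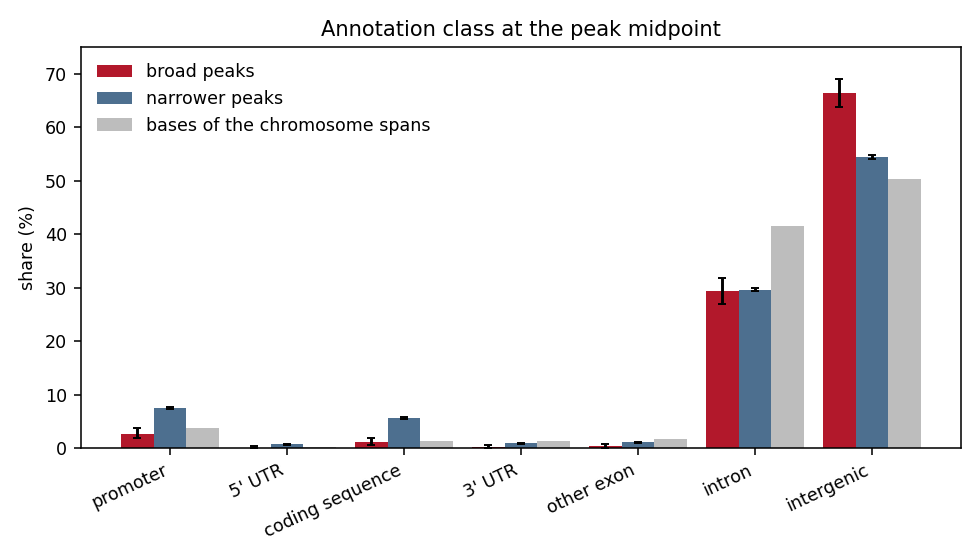
The y axis gives the share in percent of broad peaks (red), narrower peaks (blue) and bases of chromosomes 1 to 19 (grey) in each annotation class on the x axis; lines on the bars are exact 95% intervals for counting error. Broad peaks stand above narrower peaks in intergenic sequence (66.5% against 54.5%) and below them in promoters (2.66% against 7.52%) and coding sequence (1.06% against 5.59%).

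An annotated gene of any type overlapped 33.8% of broad peaks (445), against 45.1% of narrower peaks. Coding genes overlapped 24.8% of broad peaks and 38.6% of narrower peaks. Some types went the other way. Long intergenic non-coding RNA genes overlapped 5.55% of broad peaks and 4.12% of narrower peaks. Ribosomal RNA genes overlapped 0.913% (12 peaks) and 0.0323%, and 11 of these 12 peaks formed a group on chromosome 8 described below. Transcribed unprocessed pseudogenes overlapped 0.76% (10 peaks) and 0.273%. Unprocessed pseudogenes overlapped 0.76% (10 peaks) and 0.478%. The exact interval for 10 of 1315 peaks, 0.365 to 1.39%, includes 0.478%, so no difference was shown for unprocessed pseudogenes. Processed pseudogenes did not go the other way, at 0.532% and 0.581%. Intergenic broad peaks were not further out than narrower ones. Their median distance to the nearest gene was 21.9 kb, against 23.6 kb, and 10.8% of them lay over 100 kb from any gene, against 13.1%. The longest gene around an intronic broad peak had a median length of 156 kb, against 149 kb for intronic narrower peaks.

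Few genes had several broad peaks. A broad peak lay in the body or within 1 kb of 488 of 51229 annotated genes (0.953%), among them 293 of 20807 coding genes (1.41%), and 53 genes had 2 or more. Gm20388, a predicted gene model of 4435 kb that spans the 5S array, had 12. Gm26804, a non-coding gene in a chromosome 8 group, had 5. Sugct, a mitochondrial CoA-transferase gene of 838 kb, had 4, with scores of 339, 347, 224 and 220. Nell1, Pde1c, Ptprd and Ptprn2, all of 499 kb or more, had 3 each, and so did the non-coding genes Gm21847 and Gm26973. Tmem267 had 3, of which one covered its start site (2636 bp, score 360), one was the second widest of all (chr13:119595471-119604565, intron, 9095 bp, score 3100) and one lay at its far end (3291 bp, score 101.8).

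Coding start sites were rarely under a broad peak. A coding start site lay within 1 kb of the edge of 1.83% of broad peaks (24), against 7.40% of narrower peaks, and the midpoint lay that close in 1.14%, against 6.75%. Seen from the genes, 26 of 20807 coding start sites (0.125%) had a broad peak within 1 kb. Broad peaks covered 21 start sites outright, and the peak reached further downstream than upstream at 18 of the 21, with medians of 1891 bp downstream and 586 bp upstream.

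Genes for transcription factors of development were among them. At Cebpa, which drives fat and myeloid cell differentiation, the peak ran from 1537 bp upstream to 1602 bp downstream (chr7:35117756-35120895, score 397). At Sox21, a neural HMG-box factor, it ran from 263 bp upstream to 2363 bp downstream (score 298). At Sim2, a bHLH-PAS factor of midline development, it ran from 1576 bp upstream to 1240 bp downstream (score 300). Tlx3, a homeobox factor of sensory neurons, had a peak of 2243 bp (score 233), and Cux1, another homeobox factor, one of 2411 bp (score 254). These peaks spanned both sides of the start site and had scores near or below the median of broad peaks, apart from Cebpa.

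The other covered start sites belonged to genes of several kinds. Grin2a, an NMDA receptor subunit, had a peak of 3210 bp with score 437. Slc18a3, the vesicular acetylcholine transporter, had one of 2416 bp with score 300. The peaks at Ajap1, an adherens junction protein, and at Hs3st3b1, a heparan sulfate sulfotransferase, measured 2478 and 2460 bp with scores of 253 and 336. Lmnb1, which encodes lamin B1 of the nuclear envelope, had one of 2068 bp with score 253. Ckb, a creatine kinase, Tesc, Trim9, Tril, Sema5b, Tmem267 and 3110070M22Rik were also covered, by peaks with scores from 228 to 360.

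The highest scores at start sites were at other genes. They were 3100 at Gm21738 (4484 bp), 1398 at Fcgr3, an IgG Fc receptor (3722 bp, together with Mir6546), 1119.9 at AW822073 (3587 bp) and 1015 at Duxf3 (3625 bp), a Dux homeobox gene. The Duxf3 and AW822073 peaks lay 4192 bp apart on chromosome 10. These 4 exceeded every score at the developmental genes above.

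Among broad peaks with the midpoint classed as coding sequence, the widest were at Ahnak2, a giant scaffold protein (3982 bp, score 1013), and Eppk1, the plakin epiplakin (3690 bp, score 1082). Sall3, a zinc finger factor, followed with 3636 bp and a score of 509, and AW822073 with 3587 bp and the highest score of these, 1119.9. Zfp651 (2951 bp), Gnas, the imprinted gene of a stimulatory G protein subunit (2593 bp), Islr2 (2556 bp), Slc18a3 (2416 bp), Tmem201 (2089 bp) and Sp8, a limb and brain factor (2069 bp), had scores between 271 and 366. Ahnak2, Eppk1 and AW822073 were the 3 of these with scores above 1000. Peaks with another midpoint class could also lie on coding exons. Examples are Flg2 (2837 bp, score 599), classed as other exon, and the wider Flg peak (2676 bp, score 483), classed as promoter.

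Broad peaks in exons differed in how much of their sequence recurred. Exonic bases known from GENCODE transcripts came to 200 or more in 63 broad peaks (4.79%), against 9735 narrower peaks (13.7%). In 22 of the 63 (34.9%, 95% interval 23.3 to 48.0%), at least 50% of the 50-base words recurred at another annotated exonic position, in the same gene or elsewhere, against 375 of 9718 narrower peaks with enough words (3.86%). Of the 63, 9 were neighbouring peaks of the 5S array, which the interval counts as separate. Without groups of 6 or more the share was 24.1% (13 of 54, 95% interval 13.5 to 37.6%), against 3.86%. No word recurred in 34 of the 63 (54.0%), against 89.1% of narrower peaks. When broad meant 1500 bp or more, the share with recurring words was 13.6%, against 3.79%, and at 3000 bp or more it was 61.9% of 21 peaks, against 3.93%. Only annotated exons were searched, so copies elsewhere in the genome would add recurring words, and this measure was chosen after the data were seen.

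The 22 peaks with recurring words include the 9 of the 5S array. These 22 had a median width of 3445 bp, a median score of 509.5 and a median CpG observed to expected ratio of 0.520. The other 41 had 2277 bp, 282 and 0.729. Within the 22, the ratio was 0.774 to 0.832 in the 9 neighbouring 5S peaks, each over 228 to 357 exonic bases. No median was computed without those 9, so 0.520 mixes them with the rest. Over exonic bases alone, in the peaks with 200 or more of them, median GC content was 62.3% in broad peaks and 61.8% in narrower peaks. The recurring share was 100% in 8 peaks of the 5S array and 93.6% and 83.2% in a pair of peaks at Flg, which encodes filaggrin of the skin barrier. It was 85.3% at Ahnak2, 84.8% at Eppk1, 79.6% at Muc19, a gel-forming mucin (4315 bp, score 2704), 69.2% at Flg2, 58.4% at Duxf3 and 57.2% at AW822073. It was 0% at Cebpa, Sox21, Sim2, Tlx3, Cux1, Grin2a, Sp8, Sall3, Gnas and Ajap1. Single peaks did not all follow the medians. Recurrence was high and the score low at the processed pseudogene Gm48417 (89.9%, score 198) and at D10Wsu102e (57.0%, score 231). The same held at Gm37515 (55.4%, score 231) and at the second Flg peak (83.2%, score 269). These scores lay below 282, the median of the other 41. At Gm10339 (53.6%) the score of 318 lay above 282 but below the 509.5 of the 22. Recurrence was 0% with a high score at Fcgr3 (score 1398) and at chr17:39842920-39849100 (score 3100). The Fcgr3 value rests on 146 words from 244 exonic bases of a 3722 bp peak. The chromosome 17 peak holds the ribosomal RNA gene CT010467.1. Copies outside annotated exons were not searched, so 0% does not show that either sequence is single-copy. The part of recurrence in the score was not tested, and how reads that match several places were handled is not given in the sources used here.

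**Figure D3:**
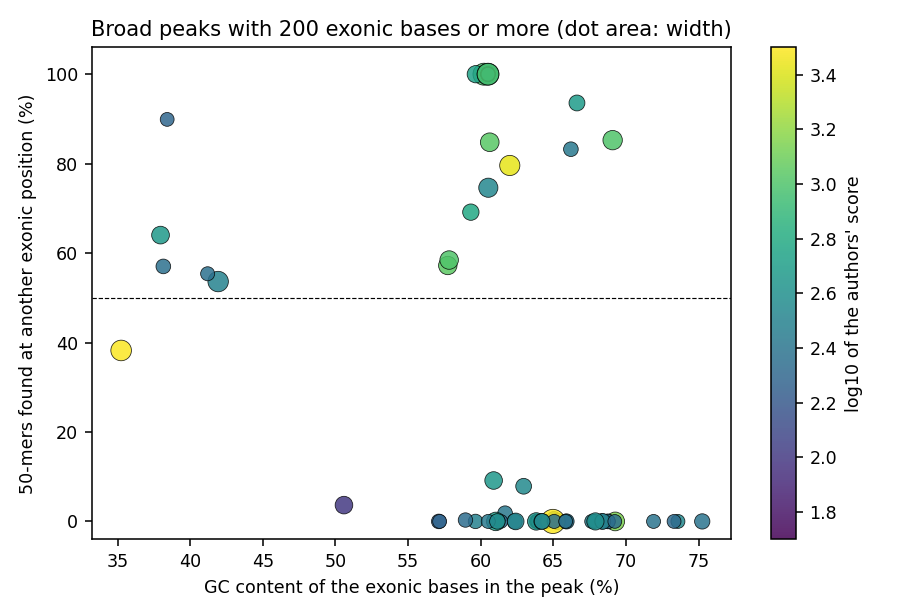
Each dot is 1 of the 63 broad peaks with 200 or more exonic bases, with the GC content of those bases in percent on the x axis and the percent of their 50-base words found at another exonic position on the y axis; dot area follows width and colour the log10 of the score. Above the dashed line at 50% lie 22 peaks, among them the 5S array, Ahnak2, Eppk1 and Flg, and among those at 0% are Cebpa, Sox21 and Sim2.

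RefSeq promoters were compared in the same way. Of 31396 promoters of 300 bases on chromosomes 1 to 19, 30 lay wholly inside a broad peak and 1833 inside a narrower one. The median GC content was 62.7% inside broad peaks, 68.0% inside narrower peaks and 53.0% over all, and the median number of CG dinucleotides was 20, 28 and 7. A promoter elsewhere that shared at least 50% of its 30-base words was found for 6 of the 30 (20%), against 1.31% inside narrower peaks and 2.97% over all, and 5 of those 6 were the chromosome 6 promoters printed or named above.

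Broad peaks had close narrower neighbours more often than narrower peaks did. A narrower peak lay within 10 kb of 80.6% of broad peaks (1060; 78.4 to 82.7%), against 66.4% of narrower peaks (49.8% against 41.4% among peaks with a score of 100 or more), and within 1 kb of 48.2%, against 29.9%. The median gap to the nearest narrower peak was 1.09 kb from broad peaks and 3.52 kb from narrower peaks. Broad peaks had 1.87 narrower peaks within 10 kb on average, against 1.45. The nearest narrower neighbour within 10 kb had a median score of 87.6 beside broad peaks and 76.1 beside narrower peaks, and a median width of 824 bp against 723 bp.

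Broad peaks also lay near each other. Another broad peak lay within 100 kb of 29.3% of broad peaks (385; 26.8 to 31.8%), whereas a broad peak lay within 100 kb of 12.6% of narrower peaks. Within 10 kb the shares were 14.4% and 3.16%, and within 1 Mb 72.2% and 60.5%. The median gap to the nearest broad peak was 398 kb from broad peaks and 726 kb from narrower peaks. Without the groups of 6 or more described next, the share within 100 kb was 22.8%, against 12.3% of narrower peaks.

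**Figure D4:**
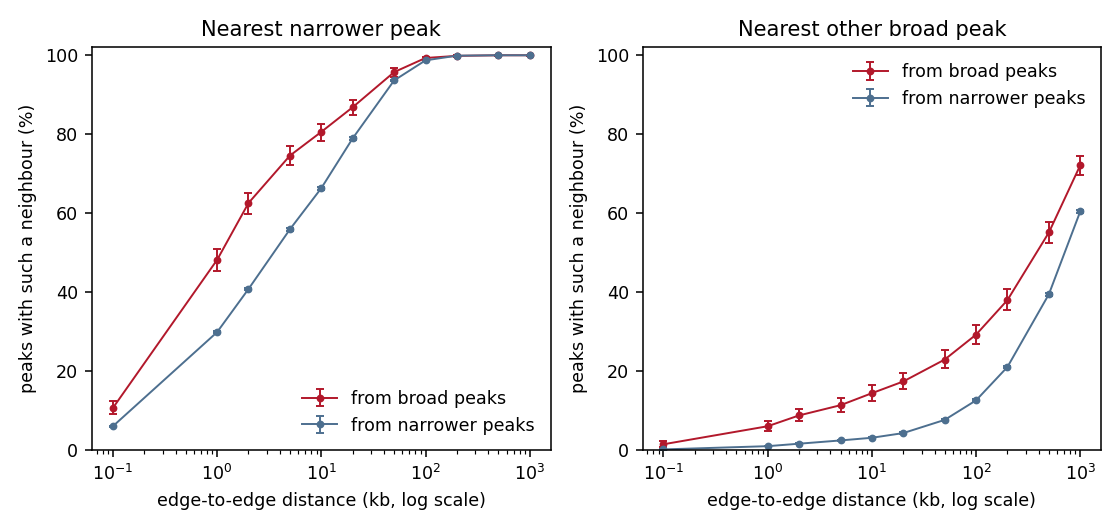
Cumulative share of broad peaks (red) and narrower peaks (blue), in percent on the y axis, with a narrower peak (left) or another broad peak (right) within the edge-to-edge distance on the x axis, in kb on a log scale; bars are exact 95% intervals for counting error. The red curve lies above the blue one from 0.1 to 50 kb in the left panel, at 80.6% against 66.4% at 10 kb, and up to 1000 kb in the right panel.

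When broad peaks within 100 kb were joined, 930 stood alone (70.7%) and 385 formed 134 groups of 2 or more. Of these, 11 groups had 6 or more members and held 110 broad peaks (8.37%) in 2008 kb, or 0.0836% of the chromosome spans. Of the 11, 5 lay on chromosome 8 with 58 peaks.

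One of the tandem groups was at the 5S ribosomal RNA genes. Its 11 broad peaks at chr8:123538399-123616301 had widths of 2009 to 5106 bp and scores of 292 to 979.8, and covered 48.2% of the 77.9 kb, or 85.1% together with 23 narrower peaks. The median score was 536. Of the 46 ribosomal RNA genes there, all on the minus strand and a median of 1697 bp apart, 23 lay wholly inside a broad peak. The peaks therefore ran over the spacers between the genes as well as the genes. Of all 321 annotated ribosomal RNA genes on chromosomes 1 to 19, 33 (10.3%) had a broad peak within 1 kb, against 0.953% of all genes, and 32 of the 33 were in this array. The other was CT010467.1 at chr17:39842920-39849100, under a peak of 6181 bp with score 3100 that also held Gm26917, Gm42418 and AY036118. The exonic bases under that peak had a GC content of 65.0%, and none of their 50-base words recurred in another annotated exon. Copies outside annotated exons were not searched.

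The group at chr6:47652756-47773567 had 13 broad peaks and no GENCODE gene. Its scores ran from 294 to 874 with a median of 651, and 10 of the 13 were 500 or more. Neighbouring starts were a median of 4.46 kb apart, and 8 of the 12 spacings were under 5 kb. A gap of 54.9 kb between starts split the group into 7 and 6 peaks. RefSeq places the gene Rn4.5s (chr6:47654921-47655094) in the first peak and types it as rRNA, a label that was not checked here. The 4.5S RNA that this gene encodes comes from tandemly repeated genes in rodents. The peaks over Gm40369, Gm40367, Gm36327 and Gm40364, whose promoters are the identical ones printed or named above, had scores of 388, 746, 638 and 651, and that over Gm52861 had 874.

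A smaller array-like group lay at chr8:55345876-55374738, with 6 broad peaks over 28.9 kb. It was covered to 50.9% by broad peaks, had spacings of 3.30, 3.31, 6.73, 3.33 and 9.70 kb and scores from 166 to 830. GENCODE gives no gene there, and RefSeq gives 4, of which 2 are pseudogenes. A group of 7 broad peaks at chr6:114510310-114630602 held no gene in either annotation. Its scores of 158 to 429 were lower, its spacings were wider with a median of 18.2 kb, and 43 narrower peaks lay among them.

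The largest group by number, at chr8:20309420-20707191, had 22 broad peaks with a median width of 3968 bp and scores from 75.4 to 1227. Of the 22, 16 were intergenic and 6 intronic, in the non-coding Gm26804 and the predicted genes Gm15319 and Gm21119. Groups of 13 and 6 broad peaks lay next to it at chr8:19908448-20112529 and chr8:19714531-19797511. Their scores ran from 56.7 to 786 with a median of 252 and from 126 to 302 with a median of 234. Those medians lay below the 536 of the 5S group and the 651 of the chromosome 6 group, and the 22 peaks of the largest group had 233.

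The widest peak of all, 9639 bp with score 1170, closed a group of 13 at chr2:176982677-177535425. That group spread over 553 kb of zinc finger gene clusters around Zfp970, with a median spacing of 50.3 kb. All 13 were intergenic by GENCODE, and their scores ran from 96.1 to 1169.7. The spacing was far wider than in the 5S and chromosome 6 arrays, and broad peaks covered 10.1% of the group.

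Groups of 6 broad peaks lay at chr5:14952783-15046980 and chr5:15593565-15698292, among genes of the Speer family, which is expressed in germ cells. Scores were low there, at 89.5 to 369 and 52.4 to 307. A group of 7 lay at chr3:106081181-106304969 around the chitinase-like genes Chia1, Chil3 and Chil4, with scores of 181 to 385. These groups lay among families of similar genes, and their scores stayed at or below the upper quartile of broad peaks.

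**Figure D5:**
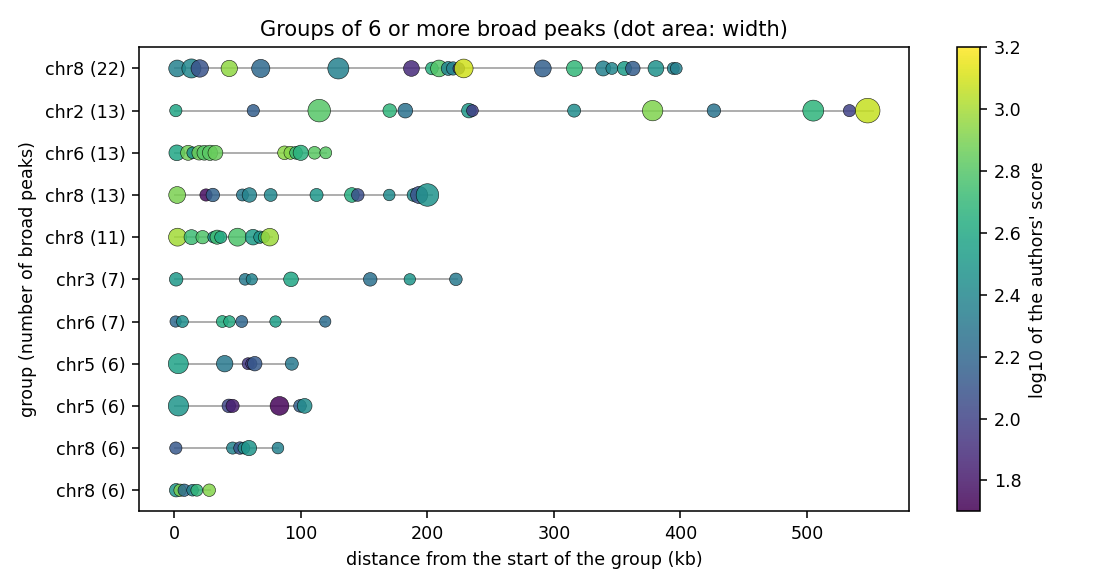
Each row is 1 of the 11 groups of 6 or more broad peaks, labelled by chromosome and number of members, with the distance from the start of the group in kb on the x axis; dot area follows width and colour the log10 of the authors' score. The 5S array (chr8, 11 members) spans 77.9 kb with scores from 292 to 979.8, and the chr6 group of 13 spans 121 kb with scores from 294 to 874. The chr2 group spreads over 553 kb with scores from 96.1 to 1169.7.

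The share of broad peaks differed between chromosomes, and for chromosome 8 these groups set its place. Broad peaks made up 2.82% of the peaks of chromosome 8 (110), 2.71% of chromosome 13 (85) and 2.33% of chromosome 6 (108), down to 1.26% of chromosome 11 (42) and 0.946% of chromosome 19 (15). Leaving out groups of 6 or more, chromosome 8 had 1.33% and chromosome 6 1.90%, while chromosome 13 stayed at 2.71%. The last 5 Mb of the chromosomes had 7.0% of broad peaks (92) against 4.97% of narrower peaks, and the first 5 Mb 5.25% (69) against 4.71%. The last 5 Mb include most of the chromosome 2 group of 13. No share without that group and no interval was computed, so a general excess at chromosome ends was not shown.

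Few members of the listed gene families had broad peaks, as was true of all genes at 0.953%. None of 43 Hox genes, 44 forkhead genes, 64 core histone genes, 58 keratin-associated protein genes and 43 collagen genes had one in the body or within 1 kb, while 28 Hox, 34 forkhead, 23 core histone, 20 keratin-associated protein and 35 collagen genes had a peak of some width. Over all genes, 31.0% had a peak of some width. Among 1399 olfactory receptor genes 1 did (Olfr643, with 2 broad peaks), and among 68 protocadherin genes 1 (Pcdh15). Of 407 zinc finger Zfp genes 6 did (1.47%), namely Zfp442, Zfp972, Zfp984, Zfp804b, Zfp936 and Zfp651, and of 52 developmental homeobox genes 2, Tlx3 and Nkx2-1. In the shorter lists, counts of 0 to 2 cannot be told from that share.

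Counts were small for genes of spermatogenesis too, in lists so short that a count of 0 does not show a lack. None of 24 spermatid and sperm genes and 25 spermatogonial genes had a broad peak, and of 24 meiotic genes 1 did, Sycp1, which encodes the transverse filament of the synaptonemal complex. Of 19 piRNA pathway genes 1 did, Mov10l1, an RNA helicase of piRNA biogenesis. Of 21 heterochromatin genes 2 did, Morc1, which silences transposons in male germ cells, and Lmnb1. The shares of 4.17% in the meiotic, 5.26% in the piRNA and 9.52% in the heterochromatin list lay above the 0.953% of all genes. They rest on 1, 1 and 2 genes, and no interval was computed for them. None of 11 linker histone genes had a broad peak, and 7 of them (63.6%, against 31.0% of genes of all types) had a peak of some width. All 11 are coding genes, and no such share was computed for coding genes alone. Of 27 Sox genes 2 did, Sox21 and Sox30, a factor of spermatid differentiation; of 33 imprinted genes 1 did, Gnas; of 13 mucin genes 1 did, Muc19; and of 4 Dux genes 1 did, Duxf3. Of 2054 microRNA genes 4 did (0.195%), and of 23698 predicted genes named Gm 130 did (0.549%). These genes are shorter, with median lengths of 0.09 and 0.967 kb against 3.70 kb over all genes. The part of gene length in these counts was not tested.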

How the data were processed

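ChIP-enriched DNA was prepared with an enzymatic kit and sequenced from KAPA libraries, per the labels. The submitters' processing notes name Bowtie 1.1.2 and mm10. Not given in the sources used here are the peak-calling program and cutoff, any use of the input, and the handling of reads that match several places. The authors deposited 1 peak list with a position, a MACS-style name and a score per peak. This score, from 50 to 3100, was set by the authors on a scale that is not stated, and read depth is unknown.

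Positions were compared with GENCODE M21 (Ensembl 96, GRCm38) and with RefSeq tables of the same assembly, and are printed counted from 1. Class was taken at the peak midpoint, gaps from edge to edge, and intervals are exact (Clopper-Pearson, 95%). Exonic sequence was rebuilt from GENCODE transcripts and compared as 50-base words on both strands. The sequence of the 5S genes is not reported here. No genome sequence was used here, so repeats outside exons were not computed. The procedures were checked on simulated peaks. The members, the gene lists and the named-gene rule were chosen with earlier results of these data known. That rule took the 15 widest peaks, the 15 with the highest score, the 15 widest near coding start sites, the 10 widest in coding sequence, the 10 genes and 10 groups with the most broad peaks, list members and the peaks at the threshold. Flg, Flg2 and the exonic and promoter measures were chosen after their values were seen. Alternatives covered width, score, class, windows and groups. Scripts ran in Python 3.11.15 with scipy 1.17.1, pandas 2.3.3, numpy 2.4.6 and, for plots, matplotlib 3.10.9.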

Additional observations from a re-analysis of the deposited data

Results flagged for a closer look

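Peaks of 2000 bp or more also occurred in sequence that no comparison above used. Chromosome X had 37 of them among 3513 peaks (1.05%), and the widest measured 21953 bp. Chromosome Y had 11 among 483 peaks (2.28%), and unplaced scaffolds had 11 among 112 peaks (9.82%). They were picked out because their number is above the 3 that a count of 0 allows. Their genes and classes were not compared.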

How the results depend on the processing

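Of 101 alternative values over 16 results, 70 kept their place, 30 moved beyond their interval or, for counts, by over 1.5 times, and 1 reversed. The reversed one was the share of broad peaks on chromosome 8, which was 4.32% without groups of 6 or more (narrower peaks 5.33%) and 8.37% with them. With a width of 1500 bp or more there were 4008 peaks and 1366 genes with one. The shares were then 0.374% in 5′ UTRs, 2.27% in coding sequence, 76.9% with a narrower peak within 10 kb, 47.3% with another broad peak within 100 kb, 3.62% near a coding start site, 6.16% on chromosome 8 and 13.6% with recurring exonic words. With 3000 bp or more there were 214 peaks and 110 genes, and the shares were 5.14% in promoters, 1.87% in coding sequence, 0% in 3′ UTRs, 0% in other exons, 2.80% near a coding start site, 36.9% in genes, 17.3% on chromosome 8 and 61.9% with recurring words. The promoter share was 5.78% by any overlap (narrower peaks 11.5%) and 4.94% with a wider promoter (12.9%). A narrower peak lay within 5 kb of 74.6%, within 50 kb of 95.7%, within 10 kb between midpoints of 78.3%, and, among peaks with a score of 100 or more, within 10 kb of 49.8% (narrower peaks 41.4%). Another broad peak lay within 10 kb of 14.4%, within 1 Mb of 72.2%, and within 100 kb of 22.8% without groups of 6 or more. By midpoint, 1.14% lay near a coding start site, and 24.8% lay in coding genes alone. The cause of these changes was not tested beyond what each setting alters. No paired analysis was possible because there is 1 library with a peak list. Without replicates, depth or the input, the spread between animals and the part of copy number in width and score were not tested.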
